A study of Mus musculus with 8 samples.

Results

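Transcript levels of 7 genes known to be induced by glucocorticoids (Fkbp5, Tsc22d3, Per1, Dusp1, Klf9, Sgk1 and Pdk4) and of the metallothioneins Mt1 and Mt2 were examined in whole blood of mice. They were chosen by gene name, with earlier results of these data known, and are measured here by 13 of the 45101 probe sets on the array (a probe set is a group of short probes read together as 1 transcript). The control mice stayed at room conditions in Kathmandu. The hypoxic mice were taken on a mountaineering expedition to Mt Everest, where hypobaric hypoxia lowered their oxygen from 21% to about 7% over 15 days. Each group had 4 mice with 1 array per mouse, and blood came from the vena cava after 15 days. Strain, sex and age of the mice and the hour of the blood draw were not stated in the labels, and the groups differ in all that travel with the expedition brought, which this design cannot tell apart from oxygen. Values below are GCRMA log2 expression, so a difference of 1 is a doubling of signal, and errors are the SD over 4 mice unless marked as SE. The gene of each of the 13 probe sets came with the member list, since no annotation table of this array was used here.

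Corticosterone, the main glucocorticoid of mice, is released by the adrenal cortex under stress and with a daily rhythm. It binds the glucocorticoid receptor, which enters the nucleus and switches on genes that carry its response elements, among them genes that end inflammatory signalling (Tsc22d3, Dusp1), feed back on the receptor itself (Fkbp5), shift fuel use (Pdk4) or reach the circadian clock (Per1). Metallothioneins are small cysteine-rich proteins that bind zinc and copper, and their genes respond to metals through the factor MTF1 and, in mice, to glucocorticoids too.

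Promoter sequence is shown for 3 genes because they hold the binding motifs that name the group: Mt1 and Mt2, neighbours on the genome with 0 annotated genes between them, carry several metal response elements, and Sgk1 and Mt1 carry the only full glucocorticoid response elements found in the members' windows. Each line gives the 250 bases before an annotated transcription start on the plus strand (RefSeq, GRCm38.p6), at chr8:94178839-94179088 for Mt1, chr8:94172368-94172617 for Mt2 and chr10:21993640-21993889 for Sgk1, 1 of its 6 annotated starts. Capitals mark metal response elements (TGCACNC or TGCGCNC, either strand) in Mt1 and Mt2 and the full glucocorticoid element (GNACA and TGTNC with any 3 bases between them) in Mt1 and Sgk1.
Mt1: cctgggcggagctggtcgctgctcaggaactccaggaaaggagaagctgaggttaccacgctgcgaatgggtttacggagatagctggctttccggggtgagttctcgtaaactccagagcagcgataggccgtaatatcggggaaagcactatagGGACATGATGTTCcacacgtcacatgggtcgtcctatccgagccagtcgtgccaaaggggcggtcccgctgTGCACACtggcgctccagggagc
Mt2: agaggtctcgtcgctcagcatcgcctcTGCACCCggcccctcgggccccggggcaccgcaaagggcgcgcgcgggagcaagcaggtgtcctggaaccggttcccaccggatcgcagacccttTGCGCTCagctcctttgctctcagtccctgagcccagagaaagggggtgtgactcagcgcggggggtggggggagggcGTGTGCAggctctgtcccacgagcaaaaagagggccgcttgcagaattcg
Sgk1: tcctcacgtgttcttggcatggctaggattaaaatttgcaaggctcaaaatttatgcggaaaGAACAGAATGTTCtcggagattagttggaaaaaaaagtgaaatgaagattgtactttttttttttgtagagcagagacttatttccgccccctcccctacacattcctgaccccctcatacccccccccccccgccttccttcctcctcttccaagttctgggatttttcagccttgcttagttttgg
The Mt1 line holds a glucocorticoid element at position -94 and a metal element at -23 from the start, and 2 further metal elements lie just after the start. The annotated Mt1 gene begins earlier than this start, at chr8:94178883, so these elements lie inside its annotated span. Before and after refer here to the annotated start, and which start is used in blood was not examined. The Mt2 line holds 3 metal elements, at -223, -128 and -50, with 1 more after the start. The Sgk1 element lies at -188 and overlaps the single arms AGAACA and TGTTCT, which together extend it by 1 base on each side. Of all 32851 RefSeq promoter windows of 300 bases (250 before and 50 after a start), 0.475% hold the full glucocorticoid element on either strand and 1.31% hold at least 3 metal elements, and these shares describe how common the letters are. The 9 genes have 17 such windows, of which 2 hold the full glucocorticoid element and 5 a metal element (25.7% of all windows). The single arm AGAACA, on either strand, is in 4 of the 17 windows, all of Sgk1 or Tsc22d3 (19.0% of all windows), and the E-box CACGTG in 4, of Fkbp5, Per1, Dusp1 and Sgk1 (7.15% of all windows). A match is a description of the letters and not a bound site.

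The glucocorticoid-induced genes did not move as a block. Tsc22d3, Sgk1 and Pdk4 fell in the hypoxic mice at each of their 4 member probe sets, 1 of 3 examined Klf9 probe sets fell, Dusp1 did not pass the test, and no member rose in the comparison of all 8 mice. Of the 13 probe sets, 11 were bright enough to be tested (log2 above 4 on at least 4 arrays), and 5 of these passed a Benjamini-Hochberg adjusted p of 0.05 in limma, all as falls. Over all 29231 tested probe sets 31.2% passed, 18.8% as falls and 12.4% as rises, a balance that depended on the scaling. Of the probe sets that passed, 5500 fell and 3614 rose. These counts were 4458 and 4631 with arrays centred on their median and 4177 and 3975 after renewed quantile normalization. With arrays centred on their spike-in control probe sets they were 4656 and 3087, so only centring on the median gave more rises than falls. Falls made up a larger share of the brighter probe sets, at 33.3% for mean log2 levels from 6 to 8 and 37.7% from 8 to 10, where 2 of 3 and 2 of 3 members fell. The remaining 5 tested members had means under 6, and 1 of them, Klf9 1428288_at, fell. That probe set was above the level filter in 4 controls and only 1 hypoxic mouse. It did not pass with values under 4 set to 4 (adjusted p = 0.220, limma). The median change of the 11 was -0.59 against -0.06 over all tested probe sets. It is the value of Dusp1, and without control replicate 2 the median was -0.21.

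**Figure D1:**
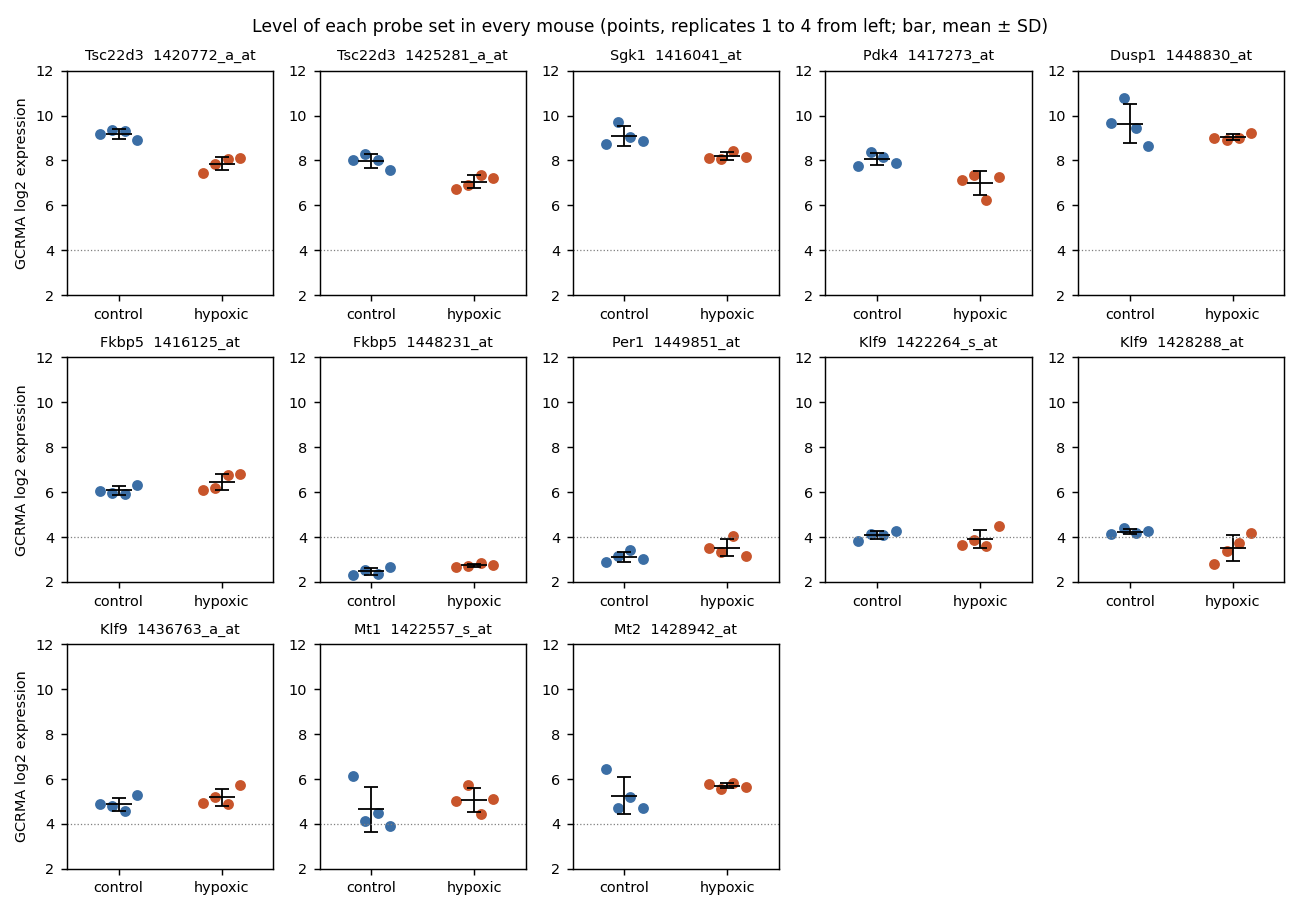
GCRMA log2 expression (vertical axis) of each probe set in the control (blue) and hypoxic (orange) mice, with 1 point per mouse, the mean and the SD over 4 mice; the dotted line marks the filter level of 4. The 2 Tsc22d3 probe sets, Sgk1 and Pdk4 separate the groups completely, whereas Dusp1, Mt1 and Mt2 spread widely among the controls.

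Whole blood mixes cell types, and fewer cells of a type cannot be told apart here from less RNA per cell. The transferrin receptor, abundant on red cell precursors, rose from 5.36 ± 0.40 to 8.47 ± 0.44 at its 3' control probe set (change 3.11 ± 0.24 SE, adjusted p = 1.42e-05, limma with the array's control probe sets kept). This level moves with the groups beside every fall below, and the part of a changed cell makeup in them was not tested. It is the only marker of a blood cell type with an identified probe set here.

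Tsc22d3 encodes GILZ, a leucine zipper protein that restrains NF-kB and AP-1 activity and is among the most direct targets of the receptor in lymphocytes and myeloid cells. At probe set 1420772_a_at its level was 9.18, 9.35, 9.29 and 8.89 in the control mice and 7.44, 7.83, 8.07 and 8.09 in the hypoxic mice. The lowest control lies well above the highest hypoxic mouse. The mean fell from 9.18 ± 0.20 to 7.86 ± 0.30, a change of -1.32 ± 0.17 (SE; 95% interval -1.70 to -0.94) or 2.50-fold lower (adjusted p = 0.000314, limma). Of all tested probe sets, 1.01% fell by as much or more.

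The second Tsc22d3 probe set, 1425281_a_at, stood at 8.02, 8.28, 8.03 and 7.55 in the controls and 6.74, 6.91, 7.37 and 7.21 in the hypoxic mice, again with no overlap. Its mean fell from 7.97 ± 0.31 to 7.05 ± 0.29, which is 1.89-fold lower (change -0.91 ± 0.19 SE, adjusted p = 0.00444, limma). The gap between both probe sets narrowed from 1.21 ± 0.12 to 0.80 ± 0.12 on the log2 scale, with 0.40 more fall at the first and no overlap between groups (exact permutation test, two-sided, p = 0.0286, adjusted p = 0.0571 over 6 pairs). Tsc22d3 has several annotated promoters and transcripts, and which of them each probe set reads was not examined.

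Sgk1, a kinase of the AKT family best known for raising sodium transport in the kidney and also active in lymphocytes, was at 8.73, 9.72, 9.03 and 8.85 in the controls and 8.11, 8.07, 8.44 and 8.17 in the hypoxic mice (1416041_at). Control replicate 2 was the highest of the 8, and the groups did not overlap. The mean fell from 9.08 ± 0.44 to 8.20 ± 0.17, a change of -0.89 ± 0.21 (SE; 95% interval -1.34 to -0.44) or 1.85-fold lower (adjusted p = 0.00801, limma). Without control replicate 2 the change was -0.67 (adjusted p = 0.0123, limma). The promoter lines above show a full glucocorticoid element for Sgk1 and for Mt1, which did not pass the test.

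Pdk4, a mitochondrial kinase that shuts off pyruvate dehydrogenase and so spares glucose, is induced by fasting, fatty acids and glucocorticoids. Its probe set 1417273_at was at 7.77, 8.39, 8.14 and 7.90 in the controls and 7.13, 7.36, 6.22 and 7.27 in the hypoxic mice. The groups did not overlap, and hypoxic replicate 3 lay lowest. The mean fell from 8.05 ± 0.28 to 7.00 ± 0.52, a change of -1.05 ± 0.24 (SE; 95% interval -1.58 to -0.52) or 2.08-fold lower (adjusted p = 0.00758, limma), and -0.80 without hypoxic replicate 3. In a linear model without moderation of the variance its adjusted p was 0.0515.

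Dusp1, the phosphatase MKP-1 that removes phosphate from p38 and JNK, is induced both by glucocorticoids and, within minutes, by stress or handling. It was the brightest member, at 9.65, 10.78, 9.44 and 8.66 in the controls and 9.01, 8.93, 8.98 and 9.24 in the hypoxic mice (1448830_at). The hypoxic mice lay within 0.32 of each other and inside the range of the controls, which spanned 2.12. The difference of -0.59 ± 0.34 (SE; 95% interval -1.34 to 0.15) did not pass (adjusted p = 0.200, limma). It depended on single controls, at -0.21 without control replicate 2 (adjusted p = 0.518, limma) and -0.92 without control replicate 4 (adjusted p = 0.0371, limma, a setting in which 16.2% of all tested probe sets passed as falls).

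**Figure D2:**
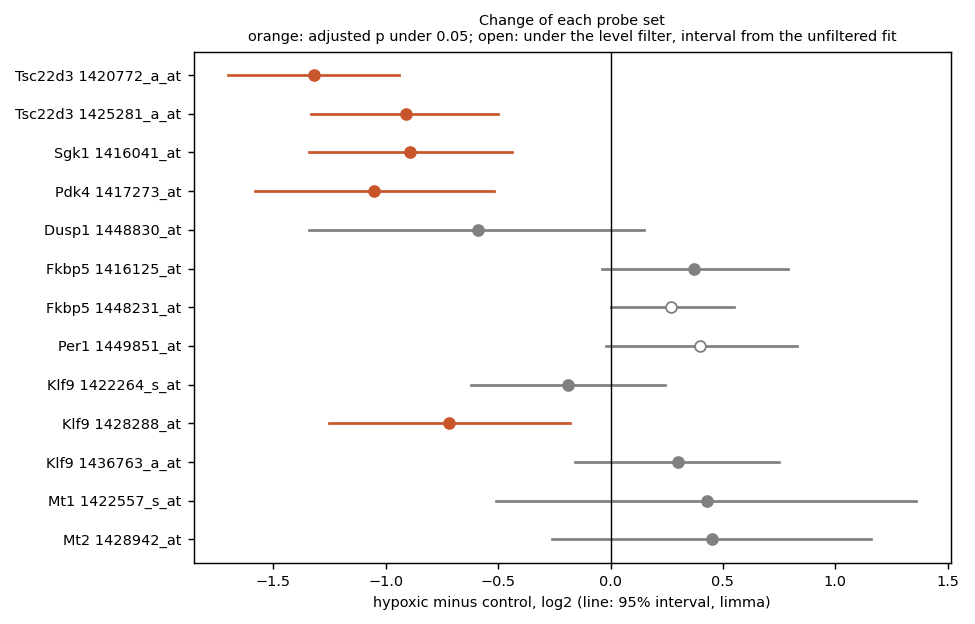
Difference between group means (hypoxic minus control, log2) of each probe set with its 95% interval from limma; orange marks an adjusted p under 0.05 and open circles mark the 2 probe sets under the level filter, whose intervals come from the unfiltered fit. The intervals of Tsc22d3, Sgk1, Pdk4 and 1 Klf9 probe set lie wholly below 0, and no interval of a tested probe set lies wholly above 0.

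Fkbp5, the co-chaperone FKBP51 that lowers the receptor's affinity for hormone, is the feedback gene of the group and a common readout of glucocorticoid exposure in blood. Its mean was higher in the hypoxic mice, as it was at 6 of the 13 member probe sets. At 1416125_at it was at 6.07, 5.97, 5.92 and 6.34 in the controls and 6.09, 6.17, 6.75 and 6.79 in the hypoxic mice. Hypoxic replicates 3 and 4 lay above all controls, whereas replicates 1 and 2 lay among them. The difference of 0.37 ± 0.19 (SE; 95% interval -0.04 to 0.79) did not pass (adjusted p = 0.151, limma), and over the alternatives tried its adjusted p stayed between 0.0585 and 0.341.

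The direction of Fkbp5 was set against that of the genes that fell by subtracting their levels within each array, in 3 contrasts chosen after the values were seen. Fkbp5 minus Tsc22d3 (1420772_a_at) ran from -3.38 to -2.55 in the controls and from -1.66 to -1.30 in the hypoxic mice, a shift of 1.69. Fkbp5 minus Sgk1 shifted by 1.26 and Fkbp5 minus Pdk4 by 1.43. The choice of genes that already separated the groups largely fixed this outcome, so the values are a description and no test is given.

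The other Fkbp5 probe set, 1448231_at, was dim in every mouse, from 2.29 to 2.67 in the controls and from 2.65 to 2.82 in the hypoxic mice, and was not tested with the rest. The difference was 0.27 (exact permutation test, two-sided, p = 0.0571). Per1, a core repressor of the circadian clock that glucocorticoids induce directly, was also under the filter at its probe set 1449851_at. Its levels were 2.88, 3.17, 3.40 and 3.01 in the controls and 3.52, 3.34, 4.05 and 3.17 in the hypoxic mice, which overlap. The Per1 difference was 0.40 (exact permutation test, two-sided, p = 0.114). The 27 probe sets for bacterial transcripts, for which mouse RNA holds no target, averaged 2.19 ± 0.04 in controls and 2.50 ± 0.08 in hypoxic mice, and single ones changed by -0.08 to 0.68. The changes of these Fkbp5 and Per1 probe sets lie within that range, and the part of background signal in them was not tested.

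Klf9, a zinc finger repressor that glucocorticoids and thyroid hormone induce and that dampens the response of other targets, gave different answers at its 3 probe sets. At 1428288_at the controls were at 4.13, 4.40, 4.19 and 4.25 and the hypoxic mice at 2.80, 3.37, 3.75 and 4.18. Hypoxic replicate 4 reached the controls and replicate 1 was far below them. The fall of -0.72 ± 0.24 (SE) passed narrowly (adjusted p = 0.0432, limma), but this probe set entered the test through its 4 controls and 1 hypoxic mouse. With values under 4 set to 4 the change was -0.20 (adjusted p = 0.220, limma), and it kept its call when hypoxic replicate 3 or 4 was left out but not when any of the other 6 mice was (adjusted p 0.0694 to 0.0990, limma).

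The Klf9 probe set 1422264_s_at lay between 3.82 and 4.29 in controls and between 3.61 and 4.48 in hypoxic mice, and its difference of -0.19 ± 0.20 (SE) did not pass (adjusted p = 0.487, limma). The brightest of them, 1436763_a_at, lay between 4.59 and 5.27 in controls and between 4.89 and 5.73 in hypoxic mice, with a difference of 0.30 ± 0.21 (SE, adjusted p = 0.290, limma). Within arrays, 1428288_at minus 1436763_a_at went from -0.64 ± 0.30 to -1.66 ± 0.42, a shift of -1.02 with no overlap between groups (exact permutation test, two-sided, p = 0.0286, adjusted p = 0.0571 over 6 pairs). The shift of 1422264_s_at minus 1436763_a_at was -0.49 with the same p. With values under 4 set to 4 these shifts were -0.50 and -0.31 (exact permutation test, adjusted p = 0.171 each). No direction is therefore given for Klf9 as a gene. Probe sets 1428288_at and 1422264_s_at were near the floor of the measurement, where the brightest bacterial probe set averaged 4.31 and the next 3.30. The lowest level of 1436763_a_at, 4.59, lay above these averages.

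**Figure D3:**
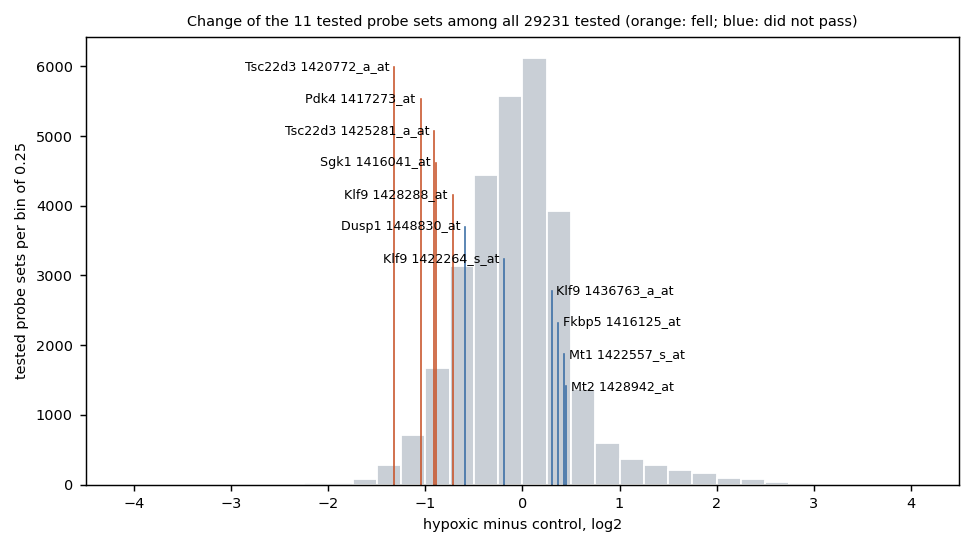
Histogram of the change (hypoxic minus control, log2, bins of 0.25) over all 29231 tested probe sets, with the 11 tested members as vertical lines, orange where they fell and blue where they did not pass. Tsc22d3 at 1420772_a_at (-1.32) and Pdk4 (-1.05) sit in the lower tail, and Fkbp5, Mt1 and Mt2 sit together near 0.4.

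Neither metallothionein passed the test, and both had their highest level in the same control mouse. Mt1 (1422557_s_at) was at 6.12, 4.12, 4.48 and 3.89 in the controls and 5.02, 5.74, 4.43 and 5.12 in the hypoxic mice. Mt2 (1428942_at) was at 6.46, 4.69, 5.20 and 4.69 in the controls and 5.79, 5.57, 5.81 and 5.66 in the hypoxic mice. Control replicate 1 had the highest level of all 8 mice for both genes, and the other 3 controls lay below every hypoxic mouse for Mt2 and below 3 of 4 for Mt1. The 4 hypoxic mice spanned 0.23 for Mt2 and 1.31 for Mt1, and hypoxic replicate 2 was highest for Mt1 and lowest for Mt2.

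With all 8 mice the Mt1 difference was 0.43 ± 0.43 (SE; 95% interval -0.51 to 1.36, adjusted p = 0.469, limma) and the Mt2 difference 0.45 ± 0.33 (SE; 95% interval -0.26 to 1.16, adjusted p = 0.312, limma). Neither passed. Without control replicate 1 the differences were 0.91 (adjusted p = 0.0347) and 0.85 (adjusted p = 0.00656) in limma, a setting in which 9.53% of all tested probe sets passed as rises. Without any of the other 7 mice they ranged from 0.17 to 0.64 and from 0.26 to 0.49 and did not pass. The Mt1 difference was 0.20 without hypoxic replicate 2, 0.25 without control replicate 2 and 0.17 without control replicate 4, and that of Mt2 was 0.26 without either of those controls. No reason in the labels sets control replicate 1 apart, so the values with all mice stand as the result. Mt1 was also dim, and control replicates 2 and 4 lay below the brightest bacterial probe set, which averaged 4.31. The lowest Mt2 level, 4.69, lay above that average. The differences of 0.43 for Mt1 and 0.45 for Mt2 lie within the changes of single bacterial probe sets (-0.08 to 0.68). Without control replicate 1 the 0.91 and 0.85 lie above them. The part of background signal in Mt1 and Mt2 was not tested.

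The metallothionein signal of control replicate 1 came with other features of that array. It had 56 probe sets that were bright on it alone (log2 from 4 up and exceeding each other array by 2 or more), where the other 7 arrays had 0 to 9, and whether their source also raised Mt1 and Mt2 was not tested. Its weight in limma's array quality model was the highest of the 8 (1.42, against 0.61 to 1.29). For the glucocorticoid-induced genes the same mouse was the highest control at none of 11 probe sets and the lowest at 6, those of Sgk1 and Pdk4 among them. The Mt1 minus Mt2 difference was -0.61 ± 0.20 in controls and -0.63 ± 0.64 in hypoxic mice, and the shift of -0.02 was smaller than the spread between mice (exact permutation test, two-sided, p = 0.943). The probe set read for Mt1 is of a kind whose probes can match more than 1 transcript, and the sequences of the metallothioneins are similar, so reading of 1 gene's RNA by the other's probes cannot be told apart from shared change.

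**Figure D4:**
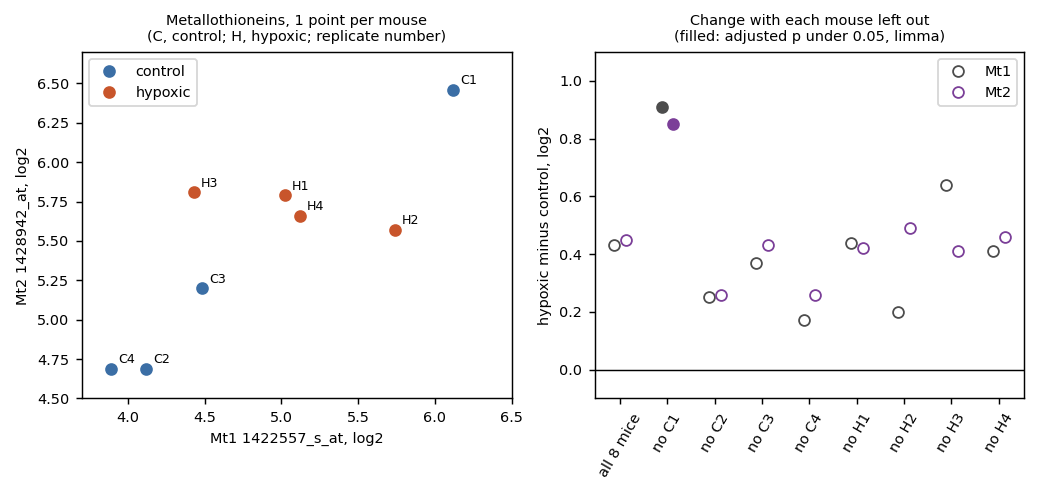
Left, Mt2 against Mt1 level (log2) with 1 point per mouse; right, change of each gene (hypoxic minus control, log2) with all mice and with each mouse left out, filled where the adjusted p in limma was under 0.05. Control replicate 1 is the upper right point, and only without it do both changes pass, at 0.91 for Mt1 and 0.85 for Mt2.

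Among the controls, the probe sets that fell tended to be high in the same animal. Control replicate 2 had the highest control level at both Tsc22d3 probe sets and at Sgk1, Pdk4 and Klf9 1428288_at, which fell. It was also highest at Dusp1, which did not pass, making 6 of 13 probe sets in all. A high control enlarges a fall, and the falls were computed from these same control levels. The order is therefore no separate support for them, and its source was not tested. Control replicate 4 had the lowest level of both Tsc22d3 probe sets, Dusp1 and Mt1 and the highest of both Fkbp5 probe sets and of 2 Klf9 probe sets. In the hypoxic group replicate 4 was highest for 6 probe sets, including the brighter one of Fkbp5 and all of Klf9, and replicate 1 was highest for none and lowest for 5. With 4 mice per group these orders are descriptions of single animals.

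Likeness of profiles was measured as the root mean square difference over the 8 arrays after centring each probe set on its control mean, among the members and the array's own probe sets for named mouse genes. The profile most like Sgk1 was that of Tsc22d3 at 1425281_a_at (0.23 on the log2 scale), and for Tsc22d3 at 1420772_a_at it was Sgk1 (0.41), followed by Pdk4 (0.48). Pdk4 was nearest to Sgk1 (0.45), and so was Dusp1 (0.43). Fkbp5 lay about as near to Klf9 at 1436763_a_at (0.26) as to a control probe set for pyruvate carboxylase (0.27), and Mt1 and Mt2 were nearest to each other (0.41). The group change stays in this measure, so probe sets that fell by similar amounts come out near each other, and their likeness partly restates the falls above. Only 23 to 25 probe sets of other genes were compared for each gene, so a nearer profile may exist among the rest of the array.

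In fits that left out 1 mouse at a time, the falls of Tsc22d3 at both probe sets, of Sgk1 and of Pdk4 passed 8 of 8 times. Over all 29231 tested probe sets these fits gave 4159 to 5738 falls each, and the share that passed in all 8 was not counted. The changes of these members then ranged from -1.41 to -1.18 and from -1.06 to -0.81 for Tsc22d3, up to -0.67 for Sgk1 and from -1.17 to -0.80 for Pdk4. These 4 probe sets are also the only members without overlap between groups, 4 of 11 tested where the array as a whole had 31.9%. The authors' deposited table gave 36.5% of its probe sets a q-value below 5%, among them both Tsc22d3 probe sets (0% and 0.177%), Sgk1 and Pdk4 (0.278% each) and Klf9 1428288_at (1.88%). The same deposited table gave Fkbp5 1416125_at a q-value of 9.56%, Dusp1 11.5%, Mt2 18.1% and Mt1 25%. It was computed from the same arrays and is no independent measurement.

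**Figure D5:**
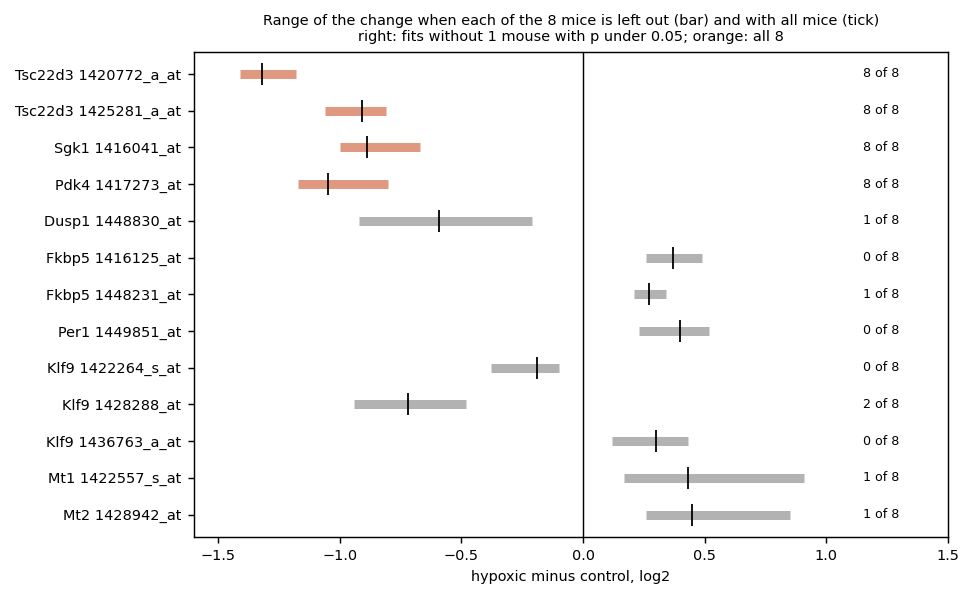
Range of the change (hypoxic minus control, log2) of each probe set when each of the 8 mice is left out (bar) and with all mice (tick), with the number of such fits under a p of 0.05 at the right (adjusted p in limma; exact permutation p for Fkbp5 1448231_at and Per1). Tsc22d3, Sgk1 and Pdk4 stay below -0.6 in all fits, whereas Dusp1, Mt1 and Mt2 change most with the mouse left out.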

How the data were processed

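RNA from 100 µl of whole blood per mouse was measured on Affymetrix arrays, 1 for each mouse. GCRMA and Partek are named, without versions, per the submitters' processing notes. The deposited value table lists GCRMA log2 values that had lost their decimal point, a score rather than an expression value, with some turned into spreadsheet day numbers. For each probe set of the authors' deposited SAM table, whose other columns are a fold ratio, a denominator and a q-value in percent, the 8 values were read so that their difference of means met the authors' log2 difference within 5e-06. Exactly 1 reading did so for 38198 of 38206 probe sets, and the deposited fold, not used for reading, was then met to within 1.6e-06. Every listed value of Fkbp5 1448231_at, the only member outside that table, had 1 reading, since no value starts with the digit 1.

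Probe sets other than controls (AFFX) with log2 above 4 on at least 4 arrays were tested with limma 3.58.1 (R 4.3.3, lmFit and eBayes, group as the only term, two-sided), with Benjamini-Hochberg adjustment over 29231 probe sets. Exact permutation tests used all 70 assignments, or all 35 with 1 mouse left out, and their smallest two-sided p is 0.0286 in either case. The script was tested on simulated data. The labels number the mice but do not say whether they came from separate cages, and the number of arrays limits precision. The members and lists were chosen with earlier results of these data known. All 13 members were named whatever their values. Planned were 14 lists with 181 genes (glucocorticoid receptor and co-chaperones, other induced and repressed genes, metal response, paralogs, and markers of blood cells and liver). They were not analysed here, as no table used here pairs probe sets with genes and only Tfrc is identified. Values were recovered and plotted in Python 3.11.15 with numpy 2.4.6, pandas 2.3.3 and matplotlib 3.10.9. Alternatives for filter, floor, variance, scaling, array weights, replicate block, threshold, test, reading of the values and each mouse left out were run.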

Additional observations from a re-analysis of the deposited data

How the results depend on the processing

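The changes of the 11 tested members kept their sign under every alternative that gave a value, and those of Per1 and Fkbp5 1448231_at under the 9 run for them (no filter, each mouse left out). The falls of Tsc22d3 (both probe sets) and Sgk1 also kept their calls, and that of Pdk4 did outside the linear model without moderation. The number of members that fell (5) was 3 in that model and 4 or 5 otherwise, the array-wide count of falls being 3607 there against 5500 (the cause was not tested). The number that rose (0) was 0 to 2 when each mouse was left out. Of 9114 calls, 3614 of them rises, the stricter filter, which tests fewer probe sets, left 5809 and 1978, and an adjusted p under 0.01 left 4617, with 1954 rises and 2663 falls. Scaling moved the balance of falls to rises from 5500 and 3614 to 4458 and 4631 with arrays centred on their median. It was 4177 and 3975 after quantile normalization, and 4656 and 3087 with arrays centred on their spike-in control probe sets. The authors' deposited SAM table, which lists more probe sets, had 13934 and 6294 at a q-value under 5%. Leaving out each mouse gave 6872 to 9315 calls, 2713 to 3577 rises and 4159 to 5738 falls. The Mt1 minus Mt2 shift (-0.02) ran from -0.29 to 0.23 when each mouse was left out. A replicate block for the number of the mouse gave 7764 calls, 5 members fell and no member call changed; same-numbered mice had correlations of deviations of -0.11, -0.06, -0.10 and 0.06, and 1 of 4 controls correlated best with its own number, so no pairing was seen. Keeping the control probe sets was added after the data were examined. List counts were not run, for want of gene names. Signal near the GCRMA floor limits Mt1, Per1, the dim Fkbp5 probe set and Klf9 at 1428288_at and 1422264_s_at.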
